A study of Rattus norvegicus with 30 samples.

Results

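Long-chain fatty acid synthesis was followed in rat liver through 6 genes, the elongases Elovl1, Elovl2, Elovl5 and Elovl6 and the front-end desaturases Fads1 and Fads2. They were chosen by name, with earlier results of these data known, and are 6 of the 14217 genes named on the array. All 6 were among the 10699 genes tested, through 7 of their 8 probe sets; a probe set is the group of short probes that together read 1 transcript. Elovl5 and Elovl6 have 2 probe sets each, and the brighter one stands for the gene unless the dimmer is named. The second probe set of Elovl6 lay below the limit set for testing, a mean log2 intensity of 7.388.

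The study fed 30 male Sprague-Dawley rats, 5 on each of 6 diets, for 14 days, and measured total liver RNA with 1 Affymetrix array per animal. The diet T20 held 200 g of protein per kg from freeze-dried tofu, and T10 held 100 g/kg from tofu with 100 g/kg from casein. SI and S each held 200 g/kg of soy protein, SI with an added isoflavone mixture and S without. CI and C each held 200 g/kg of casein, CI with the isoflavone mixture and C without. The isoflavones of SI and CI were set to the level of T20. All animals arrived at 4 weeks of age and ate the same commercial diet for 5 days before the trial. C was the reference for T20, T10 and S, and CI was the reference for SI.

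Mammals lengthen fatty acids in the endoplasmic reticulum, 1 unit of malonyl-CoA at a time, and an elongase of the ELOVL family catalyses the first, rate-limiting condensation. The front-end desaturases place a double bond between an existing one and the carboxyl end: Fads2 encodes the delta-6 and Fads1 the delta-5 desaturase, which with Elovl5 and Elovl2 turn the essential fatty acids of the diet into arachidonic acid and docosahexaenoic acid (DHA). Elovl6 instead elongates the palmitate made by lipogenesis, and Elovl1 elongates very long saturated and monounsaturated chains. In liver, the transcription factors SREBP-1c, LXR and PPARalpha are known to control several of these genes, and dietary polyunsaturated fat is known to lower the mRNA of both desaturases.

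Fads2 and Fads1 are neighbours. In the RefSeq annotation of the rat assembly GRCr8 the protein-coding genes Fads3, Fads2 and Fads1 follow each other on chromosome 1, with Fads2 on the minus and Fads1 on the plus strand. Elovl1 lies on chromosome 5, Elovl2 on chromosome 17, Elovl5 on chromosome 8 and Elovl6 on chromosome 2. RefSeq promoter windows, which run from 250 bases before to 50 after the annotated start, matched 5 of the 6 genes; Elovl2 has 2 windows. The windows of the desaturase pair, both called lower in T20 and in S against C, are shown with that of Elovl5, the brightest of the 6 genes. They are chr1:216171984-216172283 on the minus strand for Fads2, chr1:216252442-216252741 on the plus strand for Fads1 and chr8:87670914-87671213 on the plus strand for Elovl5, written 5′ to 3′ along each gene's own strand. Capitals mark an E-box, a CCAAT box, a cAMP response element, the core of a sterol response element or a GC box, each on either strand.
Fads2: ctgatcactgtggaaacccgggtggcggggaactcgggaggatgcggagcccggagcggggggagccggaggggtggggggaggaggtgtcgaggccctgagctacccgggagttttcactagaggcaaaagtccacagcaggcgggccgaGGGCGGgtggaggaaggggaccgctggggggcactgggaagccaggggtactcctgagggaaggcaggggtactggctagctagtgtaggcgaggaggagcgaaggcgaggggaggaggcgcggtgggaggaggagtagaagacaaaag
Fads1: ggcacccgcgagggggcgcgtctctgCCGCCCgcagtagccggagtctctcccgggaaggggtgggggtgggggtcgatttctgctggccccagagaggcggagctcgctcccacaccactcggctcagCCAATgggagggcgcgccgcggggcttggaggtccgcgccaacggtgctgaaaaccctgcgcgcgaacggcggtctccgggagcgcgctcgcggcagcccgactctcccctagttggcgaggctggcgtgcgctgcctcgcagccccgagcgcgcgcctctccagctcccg
Elovl5: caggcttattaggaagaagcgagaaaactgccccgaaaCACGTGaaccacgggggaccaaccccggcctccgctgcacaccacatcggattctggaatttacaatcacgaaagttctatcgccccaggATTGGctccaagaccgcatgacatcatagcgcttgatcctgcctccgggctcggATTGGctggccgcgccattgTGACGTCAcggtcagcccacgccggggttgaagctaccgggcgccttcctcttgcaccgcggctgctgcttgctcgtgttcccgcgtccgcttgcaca

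The motifs searched on both strands were the E-box (CACGTG), the CCAAT box (CCAAT), the core of the sterol response element (CACCCCAC), the cAMP response element (TGACGTCA) and the GC box (GGGCGG). With positions counted from the annotated start, the Fads2 window held a GC box at −99. The Fads1 window held a CCAAT box at −121 and a GC box, on the opposite strand, at −224. The Elovl5 window held an E-box at −212, CCAAT boxes on the opposite strand at −122 and −68 and a cAMP response element at −48. The 2 Elovl2 windows held 7 GC boxes and 1, and the Elovl1 window none of the motifs. Among all 33469 rat windows of this length, 33.1% held a GC box, 37.5% a CCAAT box, 6.42% an E-box, 1.83% the cAMP response element and 2.7% the core of the sterol response element. The sterol core was in none of the members' windows, which says nothing about the factor that binds it elsewhere. No motif overlapped another in the windows shown. The windows were 67.3% G or C for Fads2, 74.3% for Fads1, 60.3% for Elovl5, 84.7% and 78.3% for Elovl2 and 52.7% for Elovl1, against a median of 51.7% for all rat windows.

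The liver label was borne out by 7 hepatocyte markers of 8 listed, which lay between the 99.8th and the 100th percentile of mean intensity. Array medians ranged from an intensity of 217.4 to 255.5. Replicates 3, 4 and 5 of T10 stood apart in the 3′ to 5′ ratio of Gapdh probe sets, a sign of RNA quality: 1.58, 1.51 and 1.32 in these arrays, against 0.97 to 1.25 in the other 27. Their ratio for actin, 2.35 to 2.43, lay within the 1.84 to 2.89 of the others. Replicate 3 of CI and replicate 3 of C share 3 normalization parameters in the labels; the 2 arrays correlated at 0.9524 across probe sets, within the 0.9393 to 0.9713 of arrays from different diets. Results without these arrays stand beside the members' values or together after them.

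Tofu or soy as the only protein was accompanied by lower mRNA of 2 to 4 of the 6 genes. Fads2 fell in each of the comparisons of T20, S or SI with casein. By limma with Benjamini-Hochberg adjustment over all tested probe sets, 3 of the 6 (Fads2, Elovl6 and Fads1) fell in T20 against C, where 2.74% of all tested probe sets were called lower. In S against C 4 fell (Fads2, Elovl2, Fads1 and Elovl6), against 4.27% of all. In SI against CI 2 fell (Fads2 and Elovl2), against 6.14% of all. In T20 against CI, diets of matched isoflavone level, 2 fell (Fads2 and Elovl6), against 1.04% of all. None of the 6 was called in T10 against C, where 0.193% of all probe sets were called lower. Before adjustment the limma p in T10 against C was 0.000195 for Fads2, 0.00208 for Elovl6, 0.0146 for Fads1 and 0.0251 for Elovl2. The share of all probe sets with such unadjusted p was not counted, so these values do not set the 6 genes apart. Groups that did not overlap at all were read beside these calls: 3 of the 6 genes lay wholly below C in T20 (3.02% of all tested probe sets did), 2 in T10 (1.15%) and 2 in S (4.33%), and 2 lay wholly below CI in SI (5.43%) and 2 in T20 (2.14%). The moderated F test over the 6 diets called 4 of the 6 genes, against 12.9% of all tested probe sets, with Fads2 first (F = 19.6, limma adjusted p = 7.02e-06), then Elovl6 (0.00476), Fads1 (0.00846) and Elovl2 (0.0144). The median difference of the 6 genes on the log2 scale was −0.47 in T20 against C, where the median of all tested probe sets was −0.01. It was −0.67 in S against C, with −0.04 for all, and −0.46 in SI against CI, with −0.02 for all. T20, T10 and S were each set against the same C animals, so their differences share those 5 livers and cannot count as separate evidence. In whole liver, fewer cells that use a gene and less mRNA per cell cannot be told apart.

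**Figure D1:**
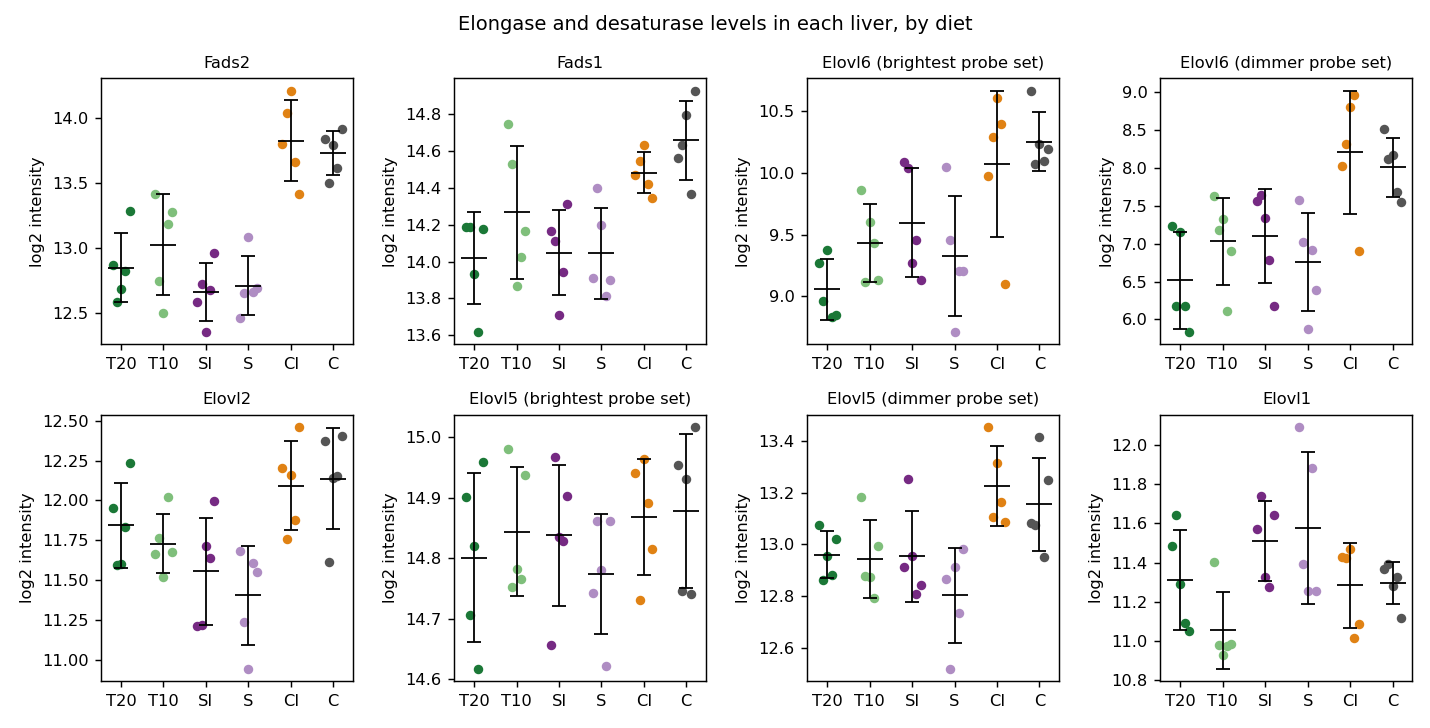
Log2 intensity of all 8 probe sets in every liver (points, 5 per diet), with the diet mean (long line) and SD (error bar), each panel on its own axis that does not start at 0; diets run T20, T10, SI, S, CI, C from left to right. Fads2 averaged 12.66 to 13.02 on the plant diets and 13.73 and 13.82 on the casein diets. Elovl5 averaged 14.77 to 14.88 over the diets by its brighter probe set and 12.80 to 13.22 by its dimmer one.

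Fads2, the delta-6 desaturase that opens the polyunsaturated route and was the member with the lowest adjusted p over the 6 diets. It read 12.87, 12.59, 12.68, 12.82 and 13.28 in the T20 livers, against 13.83, 13.50, 13.79, 13.61 and 13.92 in the C livers, in log2 intensity. Every T20 liver lay below every C liver, and the difference was −0.88 ± 0.16 (SE of the log2 difference, 5 livers per diet; limma adjusted p = 0.00258), a level 1.84-fold lower. The S livers read 12.46, 12.65, 13.08, 12.66 and 12.69, again all below the C livers, a difference of −1.02 ± 0.16 (limma adjusted p = 0.000193) and a level 2.03-fold lower. The SI livers read 12.58, 12.72, 12.35, 12.68 and 12.96, against 13.80, 14.03, 14.21, 13.66 and 13.41 in the CI livers. These groups did not overlap either, and the difference was −1.16 ± 0.16 (limma adjusted p = 4.33e-05), a level 2.24-fold lower. T20 was also below CI, by −0.97 ± 0.16 (limma adjusted p = 0.00137), with all T20 livers below all CI livers.

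The T10 livers, with casein and tofu mixed, read 13.42, 12.75, 12.50, 13.19 and 13.28 for Fads2. All 5 lay below the C livers, but the difference of −0.71 ± 0.16 missed the threshold (limma adjusted p = 0.0569). Without T10 replicate 1 it was −0.80 and passed (limma adjusted p = 0.0277), and without T10 replicates 3 to 5 it was −0.65 and did not (0.419). The diet means, from the lowest, were 12.66 ± 0.22 in SI, 12.71 ± 0.23 in S, 12.85 ± 0.27 in T20, 13.02 ± 0.39 in T10, 13.73 ± 0.17 in C and 13.82 ± 0.31 in CI (SD, n = 5 each). Only the step between T10 and C, 0.71, exceeded the within-diet SD of 0.27; other neighbours in this order did not differ beyond their spread. Of the 20 livers on a diet with plant protein, 1 (T10 replicate 1, 13.42) lay above the lowest of the 10 casein livers (CI replicate 5, 13.41). Diet accounted for 78.8% of the variance of Fads2 over the 30 arrays, the 99.5th percentile among tested probe sets, whose median was 25.3%.

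Fads1, the delta-5 desaturase that completes arachidonic and eicosapentaenoic acid, fell in T20 and in S. It read 14.19, 14.19, 13.93, 13.62 and 14.18 in the T20 livers, against 14.56, 14.64, 14.80, 14.37 and 14.93 in the C livers. The groups did not overlap, and the difference was −0.64 ± 0.15 (limma adjusted p = 0.0146), a level 1.56-fold lower. The S livers read 13.91, 14.40, 14.20, 13.81 and 13.90, of which the second lay just above the lowest C liver; the difference was −0.61 ± 0.15 (limma adjusted p = 0.0103), 1.53-fold lower. In SI the values were 14.17, 14.11, 13.71, 13.94 and 14.31, against 14.47, 14.54, 14.63, 14.42 and 14.34 in CI. All SI livers lay below all CI livers, yet the difference of −0.43 ± 0.15 missed the threshold (limma adjusted p = 0.0575). It passed without T10 replicates 3 to 5, which enter only the shared estimate of spread (limma adjusted p = 0.0324), with quantile normalization (0.00901) and with only the compared diets fitted (0.0298).

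T20 lay below CI for Fads1 without overlap by −0.46 ± 0.15, which did not pass (limma adjusted p = 0.101) except with quantile normalization (−0.51, 0.0257). The T10 livers read 14.75, 14.53, 13.87, 14.03 and 14.16 and overlapped C, with a difference of −0.39 ± 0.15 (limma adjusted p = 0.36). T10 replicates 1 and 2 alone were near the C mean: without replicates 3 to 5, the arrays with the raised Gapdh ratio, the difference was −0.02 (limma adjusted p = 0.982). Part of the T10 value thus rests on those 3 arrays, and the part of RNA quality in it was not tested. The Fads1 means, from the lowest, were 14.02 ± 0.25 in T20, 14.04 ± 0.25 in S, 14.05 ± 0.23 in SI, 14.27 ± 0.36 in T10, 14.48 ± 0.11 in CI and 14.66 ± 0.22 in C (SD, n = 5 each). No step between neighbours exceeded the within-diet SD of 0.25. Of the 20 livers with plant protein, 3 lay above the lowest casein liver (14.34).

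Elovl5, which elongates the C18 and C20 polyunsaturated products of the desaturases, was the brightest of the 6, at the 99.6th percentile of mean intensity. Its brighter probe set read 14.90, 14.71, 14.82, 14.62 and 14.96 in T20 and 14.74, 14.86, 14.78, 14.62 and 14.86 in S, against 14.96, 14.75, 14.93, 14.74 and 15.02 in C. The diets overlapped throughout, and diet means lay between 14.77 and 14.88. The difference was −0.08 ± 0.08 in T20 against C (limma adjusted p = 0.614), −0.10 ± 0.08 in S against C (0.478) and −0.03 ± 0.08 in SI against CI (0.834). The dimmer probe set of the same gene did not read alike: it averaged 12.80 ± 0.18 in S and 13.15 ± 0.18 in C, and 12.95 ± 0.18 in SI and 13.22 ± 0.16 in CI (SD, n = 5 each). Its difference of −0.35 ± 0.10 in S against C passed (limma adjusted p = 0.03), with overlapping groups, but not without S replicate 2 or 4 or C replicate 3 or 5 (0.0671 to 0.119). In T20 against C it was −0.19 ± 0.10 (limma adjusted p = 0.279), and in T20 against CI −0.26 ± 0.10 (0.175). Over the 6 diets the dimmer set passed the F test (F = 4.68, limma adjusted p = 0.0312), while the brighter set did not (0.835). That call was lost with median centring (0.136), among other settings. Over the 30 arrays the 2 probe sets correlated at 0.588 (Pearson's r, a description). The calls for Elovl5 in S and over the 6 diets therefore depend on the probe set. So does the size of the difference in S, though not its sign.

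Elovl2, which elongates C20 and C22 polyunsaturated chains on the way to DHA, was lower on the soy diets. It read 11.69, 11.24, 10.95, 11.61 and 11.55 in S, against 12.37, 11.62, 12.14, 12.15 and 12.40 in C. Only S replicate 1 reached the range of C, through its lowest liver, and the difference was −0.73 ± 0.17 (limma adjusted p = 0.00787), 1.66-fold lower. The SI livers read 11.21, 11.22, 11.72, 11.64 and 11.99, against 12.21, 11.76, 12.16, 11.88 and 12.46 in CI, with overlap. That difference, −0.53 ± 0.17, passed narrowly (limma adjusted p = 0.0422). It did not pass without any 1 of SI replicates 1, 2 and 4 or CI replicates 1, 3 and 5 (adjusted p up to 0.127), nor without replicate 3 of both CI and C (−0.52, 0.0824), nor with only SI and CI fitted (0.0634).

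Tofu was not accompanied by a called change of Elovl2. The T20 livers read 11.95, 11.60, 11.60, 11.83 and 12.24 and overlapped those of C, with a difference of −0.29 ± 0.17 (limma adjusted p = 0.352). T10 differed from C by −0.41 ± 0.17 (limma adjusted p = 0.41), and by −0.42 without T10 replicates 3 to 5 (0.669). T20 was 0.29 ± 0.17 above SI, with a 95% confidence interval from −0.07 to 0.64, so a difference between tofu and soy protein was not shown for this gene. Its means, from the lowest, were 11.41 ± 0.31 in S, 11.56 ± 0.34 in SI, 11.73 ± 0.18 in T10, 11.84 ± 0.27 in T20, 12.09 ± 0.28 in CI and 12.14 ± 0.32 in C (SD, n = 5 each), with no step between neighbours beyond the within-diet SD of 0.29.

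Elovl6, the elongase of lipogenesis that turns palmitate into stearate, showed the largest difference of the 6 in T20. It read 9.27, 8.96, 9.37, 8.83 and 8.85 in the T20 livers, against 10.67, 10.07, 10.24, 10.10 and 10.19 in the C livers. The groups lay apart by −1.20 ± 0.24 (limma adjusted p = 0.00491), a level 2.29-fold lower. Its dimmer probe set, in a fit with no filter, gave −1.49 ± 0.37 (limma adjusted p = 0.0299), from 6.51 ± 0.63 in T20 and 8.0 ± 0.39 in C (SD, n = 5 each). The S livers read 10.05, 9.45, 8.71, 9.21 and 9.20, all below C, by −0.93 ± 0.24 (limma adjusted p = 0.0169), 1.90-fold lower. That call was lost without C replicate 1 (limma adjusted p = 0.053) or S replicate 3 (0.0578), and the dimmer probe set gave −1.25 ± 0.37 (0.0539).

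The casein diet with isoflavones held 1 liver that stood low for Elovl6. CI read 9.98, 10.29, 10.60, 10.39 and 9.10, and the fifth animal was the lowest of its diet on the dimmer probe set too, at 6.91 against 8.02 to 8.96 in the other 4. The SI livers read 10.09, 10.04, 9.27, 9.46 and 9.13, a difference from CI of −0.48 ± 0.24 (limma adjusted p = 0.204). Without CI replicate 5 it was −0.72 and passed (limma adjusted p = 0.0453). T20 was below CI by −1.02 ± 0.24 (limma adjusted p = 0.0228), a call lost without CI replicate 2, 3 or 4 or T20 replicate 4 or 5 (adjusted p up to 0.0768) and without replicate 3 of both CI and C (−0.88, 0.0693). The dimmer probe set, in the fit with no filter, gave −1.69 ± 0.37 in T20 against CI (limma adjusted p = 0.0196). It gave −1.10 ± 0.37 in SI against CI (0.0737) and −0.97 ± 0.37 in T10 against C (0.459). It was not refitted with single arrays left out. The T10 livers read 9.86, 9.12, 9.61, 9.43 and 9.13, all below C, by −0.82 ± 0.24, which did not pass (limma adjusted p = 0.195), nor did the −0.76 without T10 replicates 3 to 5 (0.591). Ordered from the lowest, the means were 9.06 ± 0.25 in T20, 9.32 ± 0.49 in S, 9.43 ± 0.32 in T10, 9.60 ± 0.44 in SI, 10.07 ± 0.59 in CI and 10.25 ± 0.24 in C (SD, n = 5 each). The step between SI and CI, 0.48, exceeded the within-diet SD of 0.41, and no other neighbours did.

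Elovl1, which elongates saturated and monounsaturated chains toward the very long acids of sphingolipids, was called in no comparison. It read 11.48, 11.65, 11.29, 11.09 and 11.05 in T20, against 11.37, 11.39, 11.28, 11.33 and 11.12 in C, a difference of 0.02 ± 0.15 (limma adjusted p = 0.968). The S livers read 12.09, 11.39, 11.25, 11.88 and 11.25, so replicates 1 and 4 stood well above every C liver, while replicate 2 lay at the highest C value and the other 2 within the C range. The difference was 0.28 ± 0.15 in S against C (limma adjusted p = 0.277) and 0.23 ± 0.15 in SI against CI (0.335). It was the only 1 of the 6 with its highest means on S (11.58 ± 0.39) and SI (11.51 ± 0.20) and its lowest on T10 (11.05 ± 0.20; SD, n = 5 each). No step between neighbouring diets exceeded its within-diet SD of 0.24.

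Without replicate 3 of both CI and C, the other calls held. In T20 against C Fads2 gave −0.87 (limma adjusted p = 0.00833), Elovl6 −1.20 (0.0139) and Fads1 −0.60 (0.0486). In S against C Fads2 gave −1.01 (limma adjusted p = 0.000671), Elovl2 −0.73 (0.0226), Fads1 −0.58 (0.0358) and Elovl6 −0.93 (0.031). Fads2 gave −1.07 in SI against CI (limma adjusted p = 0.000339) and −0.88 in T20 against CI (0.00739). Those lost were the calls of Elovl2 in SI against CI, of Elovl6 in T20 against CI and of the dimmer Elovl5 probe set in S against C (−0.29, limma adjusted p = 0.114).

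**Figure D2:**
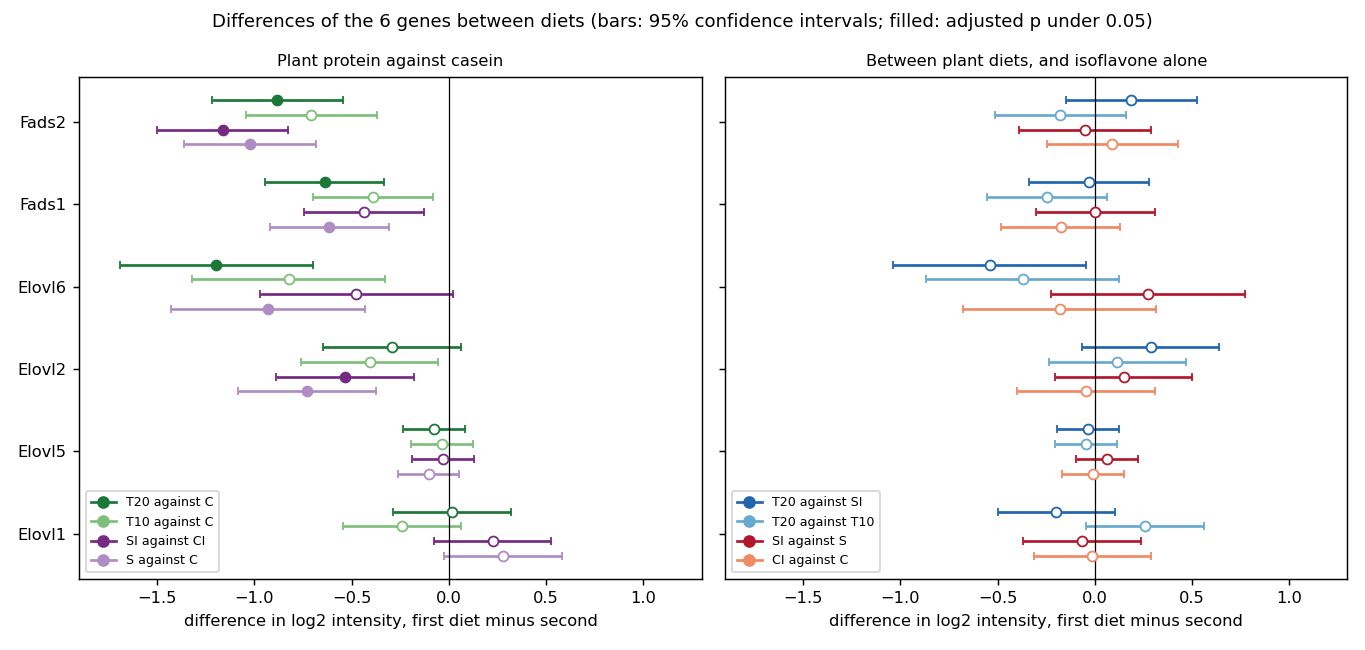
Log2 difference of each gene (horizontal axis), first diet minus second, with the 95% confidence interval from limma (bars), for plant protein against casein (left) and for the other diet pairs (right); filled points passed an adjusted p of 0.05. Fads2 lies near −1 in T20, S and SI (−0.88, −1.02 and −1.16), while Elovl5 and Elovl1 lie near 0 in T20 (−0.08 and 0.02).

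Tofu and isoflavone-enriched soy protein were set against each other directly. In T20 against SI, where 3.51% of all tested probe sets were called in either direction, none of the 6 genes was called. Fads2 was higher by 0.19 (95% confidence interval −0.15 to 0.53) and Fads1 lower by −0.03 (−0.34 to 0.28). Elovl6 had an unadjusted p of 0.0345, a limma adjusted p of 0.221 and a difference of −0.54 (−1.04 to −0.04). Elovl5 differed by −0.04 (−0.20 to 0.12) and Elovl1 by −0.20 (−0.50 to 0.11). A missed threshold does not show that the diets act alike, and the interval for Elovl6 lies wholly below 0.

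The tofu dose and the isoflavones gave no call either. T20 against T10 gave −0.18 for Fads2 (−0.51 to 0.16), −0.25 for Fads1 (−0.56 to 0.06) and −0.37 for Elovl6 (−0.87 to 0.13), in a comparison where 0.00% of all tested probe sets were called. Without T10 replicates 3 to 5 these values were −0.23 for Fads2, −0.62 for Fads1 (limma adjusted p = 0.616) and −0.43 for Elovl6, so the Fads1 value moved by over 1.5 times. SI against S gave −0.05 for Fads2 (−0.39 to 0.29), 0.00 for Fads1 (−0.30 to 0.31) and 0.27 for Elovl6 (−0.22 to 0.77), again with 0.00% called. CI against C gave 0.09 for Fads2 (−0.25 to 0.43), −0.18 for Fads1 (−0.48 to 0.13) and −0.18 for Elovl6 (−0.68 to 0.32), also with 0.00% called; without replicate 3 of both diets Fads2 gave 0.0098 and Elovl6 −0.32. The isoflavone effect was not shown to depend on the protein: none of the 6 was called in the interaction of isoflavone and protein, in which 0.0161% of all probe sets were called in either direction, and Elovl6 gave 0.45 ± 0.34 (limma adjusted p = 0.664).

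The 6 genes did not all change by the same amount. The log2 ratio of 2 members within each liver was compared between diets by a two-sided exact permutation test, with 60 such tests (15 pairs in each of 4 comparisons) adjusted together; this test was chosen after the data were seen, and the smallest p it can give with 5 livers per diet is 0.00794, or 0.0298 after adjustment. In T20 against C, 8 of 15 pairs changed unequally, in S against C 7, in SI against CI 5 and in T20 against SI none, also none at an unadjusted p under 0.05. In T20 the change of Elovl5, read by its brighter probe set, exceeded that of Elovl6 by 1.12 and that of Fads2 by 0.806 on the log2 scale. In T20 against C the brighter set gave −0.08 and the dimmer −0.19, and pairs with the dimmer set were not tested. The change of Elovl2 exceeded that of Fads2 by 0.591 in T20, and all 3 of these pairs reached the smallest p. The neighbours Fads1 and Fads2 also changed unequally on soy protein: the change of Fads1 exceeded that of Fads2 by 0.728 in SI against CI, at the smallest p, and by 0.408 in S against C (exact permutation, adjusted p = 0.0476). In T20 against C that excess was 0.244 and did not pass (exact permutation, adjusted p = 0.26). Without replicate 3 of both CI and C no pair passed in these 3 comparisons with casein. Fewer arrays raise the smallest p the test can give, and the part of this in the loss was not tested. Since each member enters 5 pairs, these counts are not independent, and they partly restate the calls of single members. No share was counted for pairs of genes outside the 6.

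Livers of the same diet were then compared for members that vary together. Each of the 15 pairs was correlated over the 30 livers after the diet mean was removed, with 100000 permutations within diets. No pair passed by Pearson's r after adjustment over the 15; 4 had an unadjusted permutation p under 0.05. Fads1 and Fads2 gave r = 0.495 and rho = 0.426 (permutation p = 0.0197, adjusted 0.0738), and 0.455 without the 2 most distant livers. Here the 2 most distant were those farthest from the median of the first gene named. Livers extreme in the second gene alone stayed in. Elovl5 and Fads2 gave r = 0.506 and rho = 0.571 (permutation p = 0.00798, adjusted 0.0738; 0.0478 for rho), and 0.545 without the 2 most distant. Elovl5 and Fads1 gave r = 0.483 and rho = 0.487 (permutation p = 0.0159, adjusted 0.0738), and Elovl1 and Elovl6 gave r = 0.516 and rho = 0.505 (permutation p = 0.0109, adjusted 0.0738), which became 0.372 without the 2 most distant.

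Genes outside the 6 were ranked by likeness to each member over all 30 arrays, by Pearson's r of log2 intensity, and the 3 highest differed among the members. The r values are a description, since the arrays share the diets. Elovl6 was most like Fasn, the fatty acid synthase (r = 0.924), Acly, which makes cytosolic acetyl-CoA (0.884), and Thrsp, a protein of lipogenic tissue (0.858); its own dimmer probe set gave 0.908. Fasn averaged 11.67 on T20 and 11.94 on S, against 13.65 on C in log2 intensity. Fads2 was most like Ddhd1, a phospholipase (0.876), Me1, the cytosolic malic enzyme that yields NADPH (0.85), and Pnpla3, a lipid-droplet acylhydrolase (0.828). Pnpla3 averaged 8.11 on T20 and 7.72 on S, against 12.08 on C, and Me1 10.94 on T20 and 10.85 on S, against 12.70 on C. Fads1 had its highest r with its neighbour Fads2 (0.774) and, outside the 6, was most like Ankrd44 (0.76), Cyb5r3, the reductase that passes electrons to cytochrome b5 (0.735), and Eci1, a mitochondrial enoyl-CoA isomerase (0.733). Elovl2 was most like Spidr (0.713), Eef1a2 (0.697) and Brox (0.674), and Elovl1 most like C5h1orf210 (0.81), Pdxkl1 (0.809) and Slc35b1 (0.804). For Elovl5 the highest value was 0.612, for Fitm2, a protein of lipid-droplet formation.

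**Figure D3:**
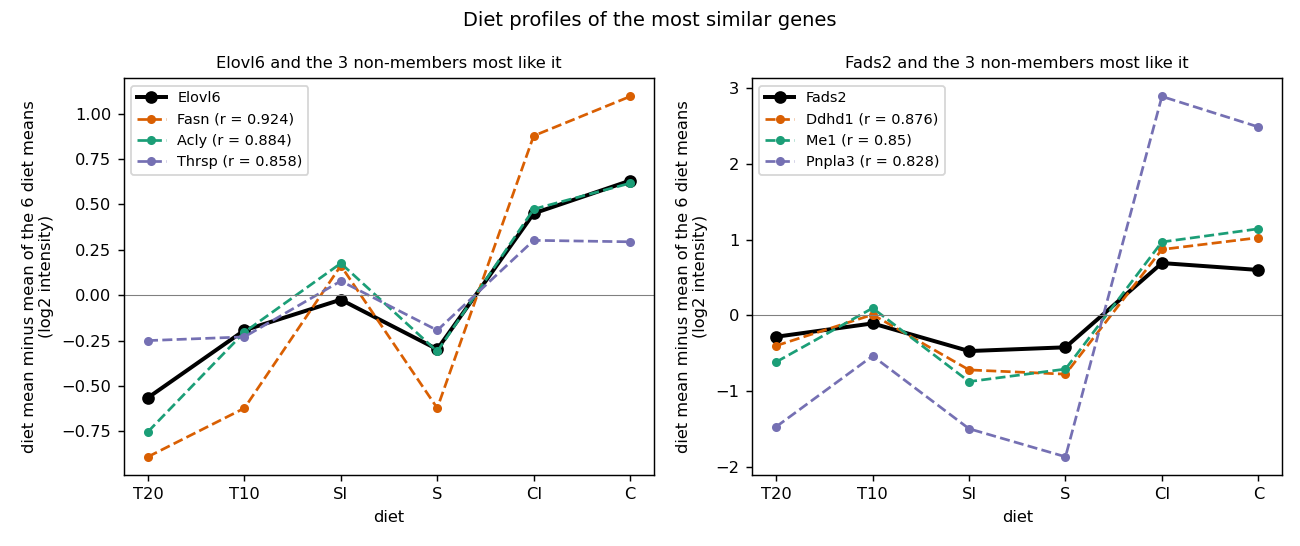
Diet means of Elovl6 (left panel), Fads2 (right panel) and the 3 genes outside the set most like each, as log2 intensity centred on each gene's mean over the diets; diets run T20, T10, SI, S, CI, C from left to right. Fasn (r = 0.924 with Elovl6) and Pnpla3 (r = 0.828 with Fads2) span wider ranges over the diets than the member they follow.

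Other genes of the route were counted from lists; of all tested probe sets, 1.76% were called higher and 2.74% lower in T20 against C, and 2.99% higher and 4.27% lower in S against C. Of 10 other elongases and desaturases, 4 were tested and 1 fell in T20 against C, Scd, the stearoyl-CoA desaturase (−1.37 ± 0.28, limma adjusted p = 0.0055); in S against C it gave −0.49 (0.325). Degs1, the sphingolipid desaturase, rose in S against C by 0.27 ± 0.08 (limma adjusted p = 0.0454). Fads3, the third gene of the desaturase cluster, gave 0.22 in T20 against C (limma adjusted p = 0.516). Of 10 tested genes of malonyl-CoA supply, the elongation cycle and its electron supply, 2 fell in T20 against C and 2 in S against C, none rose, and the list medians were 0.03 and −0.19. Acacb, the acetyl-CoA carboxylase of the mitochondrial surface, fell in T20 (−0.93 ± 0.18, limma adjusted p = 0.00295) and in S (−1.11 ± 0.18, 0.000173). Acaca, the cytosolic carboxylase, fell in T20 against C (−1.06 ± 0.18, limma adjusted p = 0.00128), and Cyb5r3 fell in S against C (−0.58 ± 0.15, 0.0132).

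Genes listed for steps after elongation moved in both directions. The list for the peroxisomal step that shortens a precursor to DHA had 6 tested genes. In S against C 1 fell, the bifunctional enzyme Hsd17b4 (−0.36 ± 0.08, limma adjusted p = 0.00686). In T20 against C 1 rose, Amacr (0.54 ± 0.13, limma adjusted p = 0.0186). Amacr is a racemase of branched chains, so its rise is not a reading of the DHA step. Of 12 tested genes that activate acyl chains or transfer them to lipids, 2 fell and none rose in T20 against C, while 5 fell and 3 rose in S against C. Acsl5, an acyl-CoA synthetase, fell in T20 against C (−0.61 ± 0.15, limma adjusted p = 0.0146) and in S against C (−0.90, 0.000189). Lpgat1, a lysophosphatidylglycerol acyltransferase, fell in T20 against C as well (−0.37 ± 0.08, limma adjusted p = 0.0104) and in S against C (−0.40, 0.00248). Acsl4, an acyl-CoA synthetase that prefers arachidonic acid, fell in S against C by −1.45 ± 0.18 (limma adjusted p = 6.75e-06) and gave −0.30 in T20 against C (0.363). Directly compared, Acsl4 was higher in T20 than in SI by 1.24 ± 0.18 (limma adjusted p = 0.000266). Agpat3, a lysophospholipid acyltransferase, rose in S against C by 0.86 ± 0.13 (limma adjusted p = 8.74e-05). Of 16 transcriptional regulators, 1 fell in T20 against C, Mlxipl, the carbohydrate-sensing factor ChREBP (−0.59 ± 0.12, limma adjusted p = 0.0038). In S against C 3 fell: Insig1, the retention protein of the SREBP pathway (−1.51 ± 0.43, 0.0283), Mlx, the partner of ChREBP (−0.36 ± 0.08, 0.00844), and Hnf4a (−0.53 ± 0.14, 0.0203). Insig1 gave a similar −1.39 ± 0.43 in T20 against C, which missed the threshold (limma adjusted p = 0.0602).

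Markers of liver and of other cell types were read beside these results. In T20 against C the called markers were Lyve1, 1 of 6 measured endothelial genes (log2 difference 0.35), Rgs5, 1 of 8 stellate cell and pericyte genes (0.76), and Cela1, the 1 pancreatic gene of 5 bright enough to test (0.68). In SI against CI they were the hepatocyte genes Serpina1 (0.24) and Cyp2e1 (0.43), Acta2 of the stellate list (0.33) and Cela1 (−0.68). In T20 against CI Rgs5 was called (0.83), and in T20 against SI Rgs5 (0.91) and Cela1 (1.13). None was called in S against C. The summed intensity of the 7 hepatocyte markers ranged from 388780 to 465849 in T20, 425881 to 530260 in SI, 414107 to 456906 in S, 383532 to 456703 in CI and 376731 to 474266 in C. That of the 6 endothelial markers ranged from 11941.3 to 13801.3 in T20 and 10849.1 to 12456.6 in C, and that of the 8 stellate markers from 15927.3 to 18432.5 in T20 and 16028.1 to 18506.5 in C. The 5 pancreatic markers summed to 2582 to 6069.6 in T20, 1477.4 to 2373.5 in SI, 2512.1 to 3615.7 in CI and 2249 to 2722.3 in C. No marker of these lists stood at 0 in any array. The pancreatic sum includes the 4 markers too dim to test, and the part of other cell types in the results was not tested.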

How the data were processed

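Liver RNA of 30 rats was measured with 1 array per animal, grouped by the diet in the labels, 5 per diet; the labels call the arrays of a diet biological replicates. The deposited table holds, for each array, an intensity per probe set that the authors had normalized with SuperNORM, per the labels' descriptions. The values were linear, from 0 to 129458.5; the sources used here do not tell how their scale was set. The design allowed for log2 values or intensities.

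After 57 control probe sets were left out, 31042 remained. Gene symbols came from the platform annotation: 20826 probe sets have 1 symbol, 436 several and 9780 none. Intensities under 16 were set to 16 before log2 was taken. A probe set was tested where its mean log2 value exceeded the 40th percentile, 7.388, which kept 18625. The gene's tested probe set with the highest mean stood for it. One mean per diet was fitted over all 30 arrays by limma 3.58.1 (R 4.3.3; 24 residual degrees of freedom, mean-variance trend, two-sided), with Benjamini-Hochberg adjustment over all tested probe sets in each of 10 comparisons and a threshold of 0.05. No slide or scan record was used, so no batch term could be fitted.

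The members, gene lists and cell type markers were chosen with earlier results of these data known. Genes outside the set were named by rule: the 3 genes outside the set of highest r with each member, and from each list up to 4 genes of lowest p among those that passed in T20 against C or in S against C, or the 2 of lowest p where fewer passed. The authors' own p-values, which a deposited text describes, were not used. Promoter windows are those of RefSeq for GRCr8. Alternatives changed the normalization, centring, filter, floor, probe set rule, samples in the fit and replicate block, or left out arrays. Precision is limited by the number of arrays.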

Additional observations from a re-analysis of the deposited data

Results flagged for a closer look

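A single liver stood apart from the other 4 of its diet in 2 of 48 groups of 5 examined, by a gap of over 0.71 of the group's whole range, a limit that chance passes in about 1 of 20 groups. For Elovl1, T10 replicate 1 read 11.40 in log2 intensity, against 10.93 to 10.98 in the other 4 T10 livers, a gap of 0.89 of the range. For Elovl6, C replicate 1 read 10.67, against 10.07 to 10.24 in the other 4 C livers, a gap of 0.727 of the range. Without C replicate 1, Elovl6 still fell in T20 against C and no longer passed in S against C (limma adjusted p = 0.053).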

How the results depend on the processing

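Fads2, Elovl6 and Fads1 stayed called lower in T20 against C under all 9 other settings and without each of the 10 arrays in turn, with adjusted p up to 0.0486. In S against C 4 genes were called under every other setting, and 3 or 4 when 1 array was left out. In SI against CI 1 or 2 were called without 1 array, in T20 against CI 1 or 2, and in T10 against C 0 or 1. In SI against CI 1 gene was called with median centring (Elovl2 −0.42, adjusted p 0.0901), with no filter (0.0585) and without replicate 3 of CI and C (0.0824). With only the compared diets Elovl2 lost its call there (0.0634) while Fads1 gained one (0.0298), as Fads1 did with quantile normalization (0.00901), with the replicate block (0.0308) and without T10 replicates 3 to 5 (0.0324). In T20 against CI 1 was called without those 2 arrays and with only the compared diets fitted (Elovl6, 0.086). Quantile normalization called 1 gene in T10 against C (Fads2, 0.0296) and 3 in T20 against CI, Fads1 among them (0.0257). The dimmer Elovl5 probe set lost its call in S against C with median centring (0.0733), with only the compared diets (0.0893) and without replicate 3 of CI and C (0.114). Median centring called 4 within-diet correlations. Without replicate 3 of CI and C, 0 pairs changed unequally in T20 against C, S against C and SI against CI. Fewer arrays raise the smallest exact p, and the part of this in the loss was not tested.

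With a replicate block, 3 genes were called in T20 against C, 0 in T10 against C, 3 in SI against CI, 4 in S against C, 2 in T20 against CI and 5 by the F test. Whether the numbers pair the animals was not tested. Over 75 pairs of arrays with the same number in different diets, deviations from the diet means correlated at a median of 0.0459 (−0.277 to 0.35). Of these, 22 exceeded 0.1, and the median for pairs with different numbers was −0.013. Among the 30 arrays, 8 correlated best with their own number.

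Only differences that passed no test changed sign. With quantile normalization Elovl5 gave 0.0501 in T20 against SI and −0.0465 in SI against S, and −0.0319 in the interaction; its dimmer probe set gave −0.0408 in T20 against SI and −0.0412 against T10, Fads1 −0.0655 in SI against S and Elovl1 0.00697 in CI against C. With median centring Elovl1 gave −0.0147 in T20 against C and 0.0386 in the interaction, Elovl5 0.0822 in SI against CI, and its dimmer probe set −0.0683 in T20 against SI and −0.0305 against T10. The mean of all probe sets gave 0.0302 for Elovl5 and 0.00802 for Elovl6 in CI against C. Without T10 replicates 3 to 5 the dimmer Elovl5 probe set gave −0.0695 in T20 against T10. Correlations that turned were −0.054 for Elovl1 with Fads2, −0.251 for Elovl5 with Elovl6, −0.0476 for Elovl6 with Fads1 and −0.0656 for Elovl6 with Fads2 under quantile normalization, and 0.0722 for Elovl1 with Elovl5 under median centring.

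Differences that crossed 0 when 1 array was left out are given by their range. In T20 against C Elovl1 lay between −0.0666 and 0.0822. In T10 against C Elovl5 lay between −0.0680 and 0.000880. In SI against CI Elovl5 lay between −0.0647 and 0.0149. In T20 against CI Elovl1 lay between −0.0545 and 0.0943. In T20 against SI Elovl5 lay between −0.0822 and 0.00912, Fads1 between −0.113 and 0.0727 and the dimmer Elovl5 probe set between −0.0307 and 0.0800. In T20 against T10 Elovl5 lay between −0.0826 and 0.00284 and the dimmer Elovl5 probe set between −0.0217 and 0.0752. In SI against S Elovl1 lay between −0.146 and 0.0631, Fads1 between −0.0624 and 0.0924 and Fads2 between −0.125 and 0.0432. In CI against C Elovl1 lay between −0.0580 and 0.0549, Elovl2 between −0.176 and 0.0378, Elovl5 between −0.0438 and 0.0251, Elovl6 between −0.313 and 0.0632 and Fads2 between −0.00569 and 0.193. In the interaction Elovl1 lay between −0.134 and 0.0752.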
